A study of Mus musculus with 18 samples.

Results

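The 9 genes described here encode 3 Janus kinases (*Jak1*, *Jak2* and *Tyk2*) and 6 signal transducers and activators of transcription (*Stat2*, *Stat3*, *Stat4*, *Stat5a*, *Stat5b* and *Stat6*), and they were taken by symbol from a table of 20615 genes. RNA-seq was performed on 18 samples of bone marrow-derived macrophages (BMDMs), 3 in each of 6 groups, from female C57BL/6 (B6) mice and from female C57BL/6.NOD-*Aec1Aec2* mice, called SjSS here for Sjögren's syndrome-susceptible. Marrow donors were 7 to 12 weeks old, and the cells were grown with 20% of a supernatant of L929 fibroblasts, a source of M-CSF. Control BMDMs were untreated, AC treated BMDMs received apoptotic thymocytes at 5 per BMDM for 2 h and were kept for 3 h after the wash by the sample labels, and CpG treated BMDMs received 1 µM of a CpG oligodeoxynucleotide, a ligand of TLR9, for 6 h. The thymocytes had been killed with dexamethasone. The SjSS line carries intervals of the NOD mouse on a B6 background, so any strain difference is a difference between these 2 lines. *Stat4* lies on chromosome 1, where one of these intervals was introduced, but whether *Stat4* lies inside that interval was not tested. The purpose was to ask how macrophages of the susceptible strain respond to dying cells, with CpG as another inflammatory stimulus.

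Janus kinases sit on the inner ends of cytokine receptors and phosphorylate each other, the receptor and then STAT proteins, which pair, enter the nucleus and bind DNA. Type I interferons act through JAK1 and TYK2, and STAT2 is the STAT that joins IRF9 in the complex that binds interferon-stimulated response elements (ISREs). JAK2 serves the receptors for interferon gamma, GM-CSF and IL-12 among others. In macrophages STAT3 relays IL-6 and IL-10, the STAT5 proteins relay GM-CSF, STAT6 relays IL-4 and IL-13, and STAT4 relays IL-12, mostly in lymphocytes. SOCS proteins, induced by the pathway, feed back on the kinases. The table measures mRNA, and phosphorylation was not measured.

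The deposited values were estimated read counts per gene. Totals ran from 30688336 to 57139662 per sample, with a median of 47912525. All 9 members passed edgeR's filter on low counts, which left 15789 genes. Levels are given as CPM, counts per 1e+06 of the library total scaled by TMM factors. A gene "passed" a comparison at a Benjamini-Hochberg adjusted p under 0.05 in edgeR's quasi-likelihood test, and "called" also needs a log2 fold change over 1.3. The TMM factors were 0.833 to 0.838 in the 3 AC treated SjSS samples and 0.942 to 1.13 in the other 15. Without these factors, with libraries scaled by their totals alone, the median log2 fold change of all genes moved from -0.02 to -0.43 in the AC response of SjSS. The direction of small changes in these samples therefore depends on the scaling, and each such case among the 9 members is named below. Of 8 macrophage markers all were present in every group, with a summed level of 15105 to 23748 CPM per sample. Summed markers of fibroblasts lay between 38.5 and 133 CPM in B6 samples and between 147 and 231 CPM in SjSS samples. Most of the sum was *Col1a1* and *Col1a2*, whereas *Col3a1* and *Pdgfra* overlapped between the strains in each treatment. The part of these markers in any strain difference was not tested. In bulk RNA fewer cells of a type and less RNA per cell cannot be told apart.

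Stretches upstream of the start sites are shown for *Stat2* and *Jak2*, the members with the largest increases, and for the second annotated start of *Stat4*, because letter matches to the ISRE fall in 2 of them. Each is the 250 bases before a RefSeq start, read on the gene's strand, on GRCm38.p6 (mm10). Searched on both strands were the ISRE (GAAA, any 2 bases, GAAA), the gamma-activated sequence bound by most STAT pairs (TTC, any 3 bases, GAA), the wider spacing preferred by STAT6 (TTC, any 4 bases, GAA) and an NF-kB motif (GGGAA, any 3 bases, CC), which were present in 2.98%, 7.02%, 5.85% and 4.94% of 32851 promoters of this length. Capitals mark matches.

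Stat2, chr10:128270248-128270497, plus strand: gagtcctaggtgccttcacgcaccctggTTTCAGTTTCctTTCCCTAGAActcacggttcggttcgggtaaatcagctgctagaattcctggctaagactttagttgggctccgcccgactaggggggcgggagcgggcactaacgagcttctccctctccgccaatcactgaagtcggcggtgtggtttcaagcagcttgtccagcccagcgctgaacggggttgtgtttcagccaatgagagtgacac
Jak2, chr19:29251553-29251802, plus strand: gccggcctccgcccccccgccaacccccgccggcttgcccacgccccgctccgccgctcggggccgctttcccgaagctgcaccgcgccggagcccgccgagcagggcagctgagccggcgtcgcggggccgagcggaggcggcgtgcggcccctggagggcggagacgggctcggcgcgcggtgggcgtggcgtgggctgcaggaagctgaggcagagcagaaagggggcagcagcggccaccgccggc
Stat4, second start, chr1:52007990-52008239, plus strand: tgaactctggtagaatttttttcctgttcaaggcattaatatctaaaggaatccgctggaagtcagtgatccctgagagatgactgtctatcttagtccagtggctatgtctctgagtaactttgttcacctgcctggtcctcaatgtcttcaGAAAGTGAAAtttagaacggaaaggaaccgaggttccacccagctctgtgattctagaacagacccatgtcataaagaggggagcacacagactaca

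The *Stat2* stretch holds an ISRE match 222 bases before the start, read on the opposite strand, and a match to the STAT6-type spacing 210 bases before it. The *Stat4* stretch holds an ISRE match 97 bases before the start. No match to the 4 motifs was found in the *Jak2* stretch or in those of the other 6 members and of the first *Stat4* start. A match is a run of letters and not a measured binding site.

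With TMM scaling apoptotic cells raised 8 of the 9 members in SjSS BMDMs, of which *Stat5a*, *Stat5b* and *Jak1* had the opposite sign by library totals, and 3 in B6 BMDMs, and *Stat2* and *Jak2* rose by the largest amounts among the members in both strains. In SjSS BMDMs all but *Stat6* were higher, and *Stat6* was lower. *Stat2* and *Jak2* were the 2 called. Among all tested genes 28.6% were higher, 29.4% lower and 7.09% called higher in this comparison. The median log2 fold change was 0.63 over the 9 members and -0.02 over all genes. By library totals alone 5 members were higher (*Stat2*, *Stat3*, *Stat4*, *Jak2* and *Tyk2*) and 3 lower (*Stat5b*, *Stat6* and *Jak1*), while of all genes that passed, 18.9% rather than 49.3% were higher. In B6 BMDMs *Stat2*, *Stat6* and *Jak2* were higher, *Stat3* and *Stat5b* lower and none was called, against 20.0% higher, 18.3% lower and 2.43% called higher of all genes. By library totals the share higher among genes that passed was 38.9% rather than 52.2% there, and *Stat6* no longer passed (log2 fold change 0.07) and *Jak1* was lower (-0.12).

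The responses to AC differed between the strains for all 9 members. The interaction term, the AC response of SjSS minus that of B6, was positive for 8 and negative for *Stat6*, and *Stat2* and *Jak2* were called. Of all genes 19.6% had a higher, 18.3% a lower and 4.76% a called higher interaction. By library totals 4 members kept a positive interaction that passed (*Stat2*, *Stat3*, *Jak2* and *Tyk2*) and *Stat6* a negative one, while *Jak1* (0.02) and *Stat4* (0.20) did not pass and *Stat5a* (-0.01) and *Stat5b* (-0.08) changed sign without passing. The share higher among genes with an interaction was 17.9% by library totals and 51.7% by TMM.

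**Figure D1:**
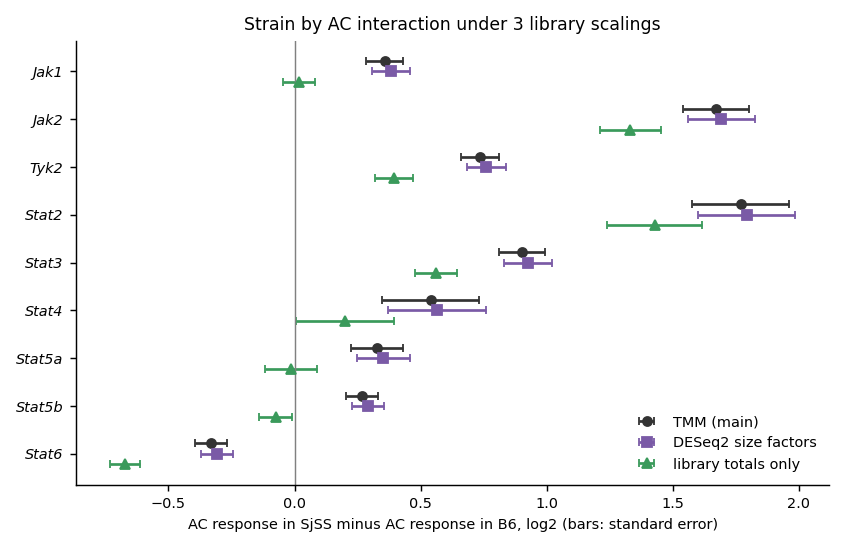
Log2 difference between the AC response of SjSS and that of B6 BMDMs for each member (points, with standard errors as bars) under 3 ways of scaling the libraries. *Stat2*, *Jak2*, *Stat3* and *Tyk2* lie right of 0 and *Stat6* left of it under all 3, whereas *Jak1*, *Stat4*, *Stat5a* and *Stat5b* lie near 0 with library totals alone.

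Under AC the strains themselves differed in 8 members, with *Stat2*, *Stat3*, *Stat5a*, *Stat5b*, *Jak1*, *Jak2* and *Tyk2* higher in SjSS, *Stat6* lower and *Stat4* not passing. *Stat2* and *Jak2* were called. Of all genes 24.0% were higher, 25.5% lower and 6.24% called higher in AC treated SjSS than in AC treated B6 BMDMs. By library totals *Stat5a* (0.07) and *Jak1* (-0.03) did not pass, *Jak2* (1.29) was no longer called, and 19.9% rather than 48.4% of the genes that passed were higher.

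Fewer members were called with CpG than with AC in SjSS BMDMs (0 against 2), and more in B6 BMDMs (1 against 0). The shares of all genes called higher went the same way, at 4.81% against 7.09% in SjSS and 5.86% against 2.43% in B6. In B6 BMDMs *Stat2*, *Stat3*, *Stat5a*, *Jak2* and *Tyk2* were higher, *Stat4* and *Stat6* lower and *Stat2* was called, against 28.1% higher, 29.8% lower and 5.86% called higher of all genes. In SjSS BMDMs *Stat2*, *Stat5a*, *Jak2* and *Tyk2* were higher, *Stat5b* and *Stat6* lower and none was called, against 27.8%, 26.4% and 4.81%. By library totals *Stat5b* (-0.11) and *Jak1* (-0.25) also fell in B6, *Stat3* (0.13) no longer passed there, and *Stat5a* (0.07) no longer passed in SjSS. *Jak1* (-0.13) then also passed in SjSS. The shares higher among all genes that passed were 48.5% by TMM and 32.4% by library totals in B6, and 51.4% and 37.2% in SjSS. The CpG response was larger in SjSS for *Stat4* and smaller for *Stat2* and *Tyk2*, with 3.23% of all genes higher, 2.62% lower and 0.285% called higher in this interaction. With the replicate number as a block 4 members had a smaller CpG response in SjSS, *Stat3* (-0.31, adjusted p = 0.0407) and *Stat5a* (-0.34, adjusted p = 0.0431) being added. By library totals the share higher among genes with this interaction was 71.6%, against 55.3%.

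Without treatment *Stat2* and *Stat5b* were higher and *Stat4* lower in SjSS than in B6 BMDMs, against 9.04% higher, 10.6% lower and 1.3% called higher of all genes. With CpG *Stat3*, *Stat5a* and *Tyk2* were lower in SjSS and none was higher, against 10.2%, 9.57% and 1.82%. None of the 9 was called in either comparison. By library totals the shares higher among genes that passed were 58.6% rather than 46.1% in control and 76.6% rather than 51.5% in CpG treated BMDMs, and the same members passed.

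**Figure D2:**
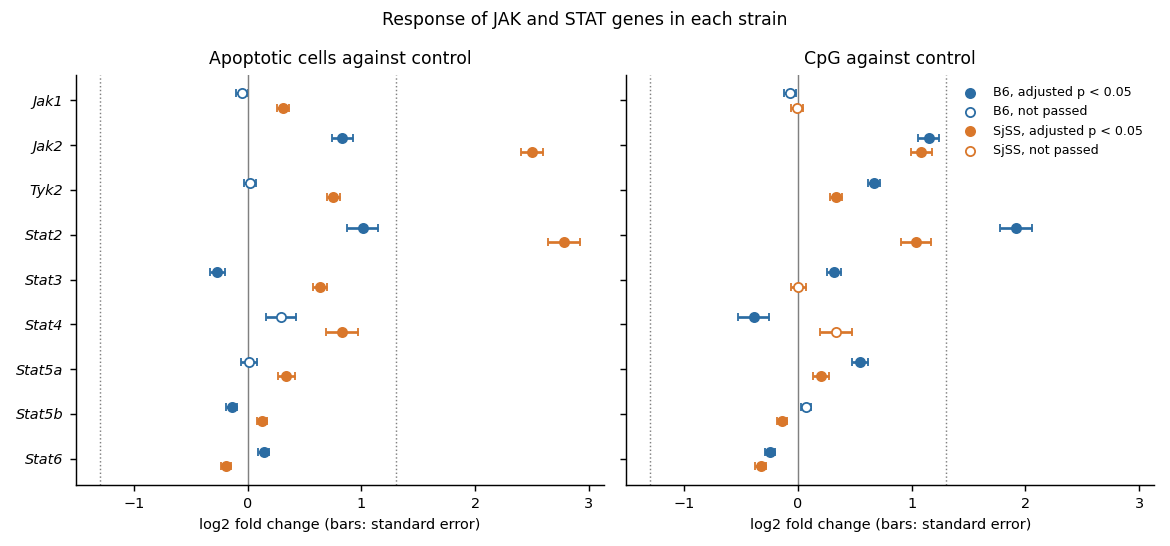
Log2 fold changes of the 9 members after AC (left) and CpG (right) in B6 (blue) and SjSS (orange) BMDMs, with standard errors as bars, filled where the adjusted p was under 0.05, and with dotted lines at 1.3 and -1.3. *Stat2* (2.78) and *Jak2* (2.50) stand furthest right after AC in SjSS; the smaller AC responses of *Jak1*, *Stat5a* and *Stat5b* in SjSS change sign by library totals.

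*Jak1* (chr4:101152367-101265282, minus strand) encodes the kinase shared by the type I interferon, interferon gamma, IL-6, IL-10 and IL-4 receptors. Its level was 304, 329 and 307 CPM in control B6, 291, 311 and 305 CPM in AC treated B6 and 294, 305 and 295 CPM in CpG treated B6 BMDMs. In SjSS BMDMs it was 311, 295 and 277 CPM in control, 373, 357 and 363 CPM with AC and 303, 288 and 289 CPM with CpG. The AC treated SjSS samples were the high ones and overlapped no other group, with a log2 fold change of 0.31 (SE 0.05, adjusted p = 4.55e-05) by TMM and of -0.11 by library totals. The response of B6 to AC was -0.05 (SE 0.05, adjusted p = 0.481).

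*Jak2* (chr19:29251828-29313080, plus strand) encodes the kinase used by interferon gamma, GM-CSF and IL-12 receptors. Control BMDMs had 65.6, 68.0 and 65.0 CPM in B6 and 67.4, 67.5 and 52.8 CPM in SjSS. AC treated B6 BMDMs had 101, 126 and 126 CPM, and AC treated SjSS BMDMs had 371, 335 and 354 CPM, above every other sample. The log2 fold changes were 0.83 (SE 0.09, adjusted p = 9.02e-07) in B6 and 2.50 (SE 0.10, adjusted p = 6.06e-14) in SjSS, a 1.78-fold and a 5.66-fold increase. The interaction was 1.67 (SE 0.13, adjusted p = 9.24e-09). With CpG the levels were 151, 145 and 144 CPM in B6 and 146, 124 and 127 CPM in SjSS, and the ranges overlapped. Both strains responded to CpG, by 1.15 and 1.08 on the log2 scale (SE 0.09 in each), and the difference of these responses was -0.07 (SE 0.13, adjusted p = 0.832). In B6 BMDMs the AC response of *Jak2* was thus smaller in value than the CpG response, and in SjSS it was larger.

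*Tyk2* (chr9:21104069-21127346, minus strand) encodes the partner of JAK1 at the type I interferon receptor. Its level was 70.5, 71.1 and 73.8 CPM in control and 70.5, 75.3 and 72.2 CPM in AC treated B6 BMDMs, 2 groups that overlap. In SjSS it was 72.7, 68.2 and 75.1 CPM in control and 128, 116 and 120 CPM with AC. The AC response was 0.02 (SE 0.05, adjusted p = 0.834) in B6 and 0.75 (SE 0.05, adjusted p = 3.93e-10) in SjSS, and the interaction was 0.74 (SE 0.07, adjusted p = 2.85e-07). By library totals these were 0.34 for SjSS and 0.39 for the interaction, and both passed. With CpG the order of the strains was the opposite. The levels were 112, 119 and 111 CPM in B6 and 88.2, 90.7 and 94.3 CPM in SjSS, without overlap, and the CpG response was smaller in SjSS by 0.33 on the log2 scale (SE 0.07, adjusted p = 0.0131). A noncoding gene, *1700084C06Rik*, lies across *Tyk2* on the other strand and shares 6.21% of the 100-base windows of its transcripts, but it had 0.10 to 0.54 CPM in the 18 samples.

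**Figure D3:**
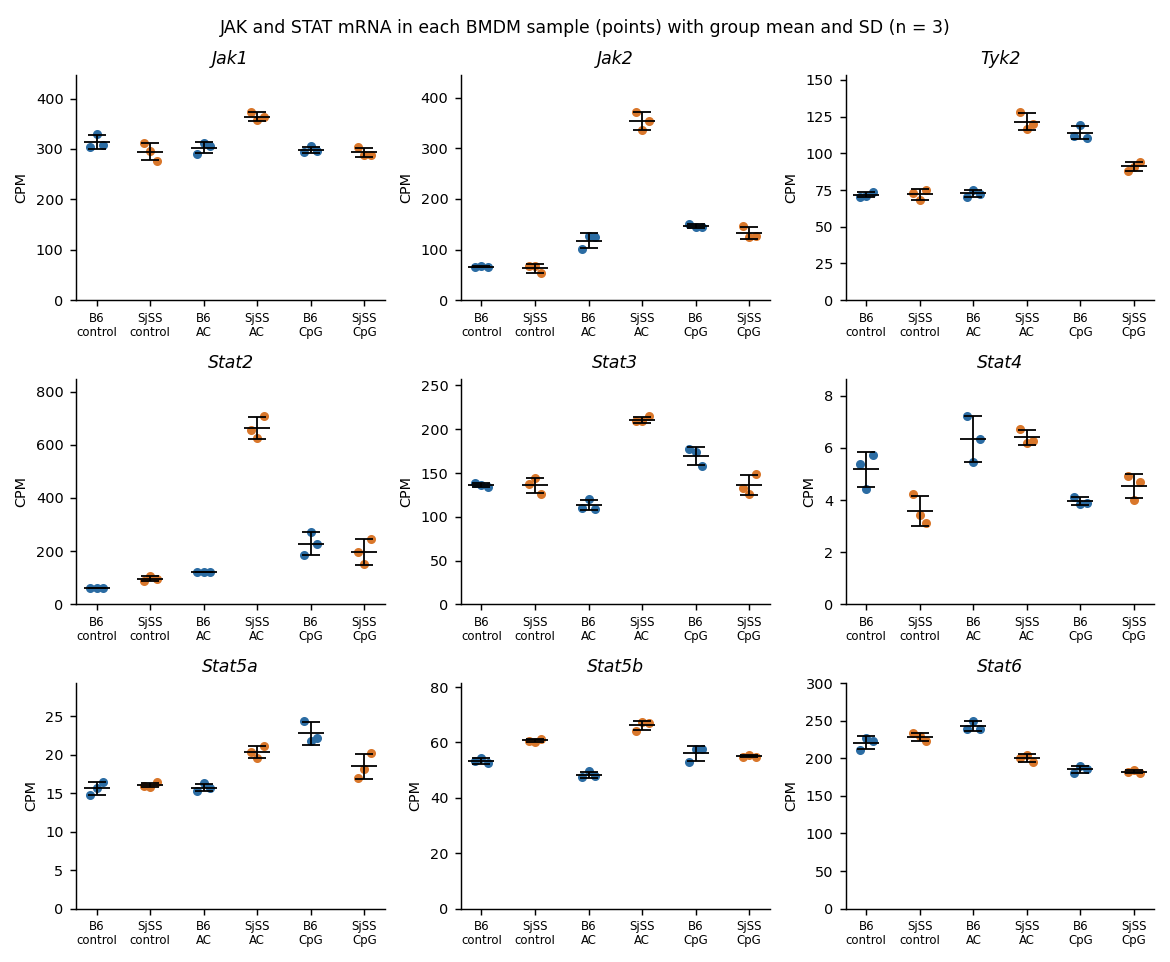
CPM of the 9 members in each of the 18 samples (points, blue for B6 and orange for SjSS) with the mean of 3 samples as a line and the SD as whiskers, each panel on its own axis from 0. AC treated SjSS BMDMs stand above all other samples for *Stat2*, *Jak2*, *Stat3*, *Jak1* and *Stat5b* and sit below both control groups for *Stat6*. By library totals the AC response of SjSS in *Jak1* and *Stat5b* has the opposite sign.

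*Stat2* (chr10:128270576-128292849, plus strand) encodes the STAT of the interferon alpha and beta receptor. Its level was 60.0, 60.8 and 60.6 CPM in control B6, 120, 123 and 122 CPM in AC treated B6 and 186, 272 and 227 CPM in CpG treated B6 BMDMs. In SjSS it was 89.0, 106 and 95.03 CPM in control, 657, 624 and 707 CPM with AC and 197, 150 and 247 CPM with CpG. The 3 B6 groups did not overlap each other, nor did the 3 SjSS groups, and the spread was widest with CpG. In B6 the CpG treated samples were the highest, and in SjSS the AC treated samples were. AC raised *Stat2* 2.01-fold in B6 (SE 0.14 on the log2 scale, adjusted p = 9.22e-06) and 6.87-fold in SjSS (log2 2.78, SE 0.14, adjusted p = 3.32e-12), with an interaction of 1.77 (SE 0.19, adjusted p = 6.33e-07). CpG raised it 3.77-fold in B6 and 2.05-fold in SjSS, a response smaller by 0.88 on the log2 scale in SjSS (SE 0.19, adjusted p = 0.00963). Control SjSS BMDMs already had 1.60-fold more *Stat2* than control B6 (log2 0.67, SE 0.14, adjusted p = 0.00184). The levels under CpG themselves differed by -0.20 (SE 0.13, adjusted p = 0.316), which became -0.39 (adjusted p = 0.0325) without SjSS CpG replicate 3.

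*Stat3* (chr11:100885098-100939540, minus strand) encodes the STAT of the IL-6 and IL-10 receptors. It had 138, 137 and 134 CPM in control and 111, 120 and 109 CPM in AC treated B6 BMDMs. In SjSS it had 137, 144 and 127 CPM in control and 209, 209 and 215 CPM with AC. The strains thus moved in opposite directions, down by 0.27 on the log2 scale in B6 (SE 0.06, adjusted p = 0.00264) and up by 0.63 in SjSS (SE 0.06, adjusted p = 7.51e-08). The interaction was 0.90 (SE 0.09, adjusted p = 2.55e-07). The signs were the same under the 3 scalings, but the sizes by library totals were 0.22 for SjSS and 0.56 for the interaction. With CpG the level was 177, 174 and 158 CPM in B6 and 133, 126 and 149 CPM in SjSS. CpG treated B6 BMDMs were above their controls (log2 0.32, SE 0.06, adjusted p = 0.000317) except by library totals, where the change was 0.13 (adjusted p = 0.0509). In SjSS the change was 0.00 (SE 0.06, adjusted p = 0.962). The difference of these 2 responses, -0.31 (SE 0.09), had an adjusted p of 0.0501 and passed with DESeq2's test (-0.34, adjusted p = 0.0184). The last 72 bases of *Stat3* and of *Stat5a* (chr11:100859351-100885169, plus strand) lie over each other on opposite strands, and whether the counting used strand is not given in the sources used here.

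*Stat5a* and *Stat5b* (chr11:100780731-100850724, minus strand) are neighbouring near-copies that serve the GM-CSF and IL-2 family receptors. They share 265 of the 100-base windows of their transcripts, 3.44% of those of *Stat5a* and 4.79% of those of *Stat5b*, so reads there could be split between them. *Stat5a* had 14.7 to 16.4 CPM in control B6, AC treated B6 and control SjSS BMDMs, and 20.3, 19.6 and 21.1 CPM in AC treated SjSS BMDMs. It had 24.4, 21.8 and 22.1 CPM with CpG in B6 and 17, 18.2 and 20.3 CPM with CpG in SjSS. The CpG treated B6 samples were the highest, with a log2 fold change of 0.55 (SE 0.07, adjusted p = 2.28e-06). The CpG response in SjSS, 0.20 (SE 0.07, adjusted p = 0.0238), had an adjusted p of 0.0607, 0.0639 and 0.164 without SjSS control replicate 1, SjSS control replicate 2 and SjSS CpG replicate 3. *Stat5b* differed little in size across groups, from 47.6 CPM in an AC treated B6 sample to 67.3 CPM in an AC treated SjSS sample. Control SjSS BMDMs (60.7, 60.3 and 61.2 CPM) were above control B6 BMDMs (53.3, 54.4 and 52.4 CPM) by 0.19 on the log2 scale (SE 0.05, adjusted p = 0.00767). With AC *Stat5b* fell by 0.14 in B6 (SE 0.05, adjusted p = 0.0189) and changed by 0.12 in SjSS with TMM (SE 0.05, adjusted p = 0.0255) but by -0.29 with library totals (adjusted p = 2.07e-05). The B6 change had an adjusted p of 0.0725, 0.0689 and 0.0625 without B6 control replicate 2, B6 AC replicate 1 and B6 AC replicate 3, and the SjSS change one of 0.0546, 0.0638, 0.0774 and 0.0743 without SjSS control replicates 1 and 2 and SjSS AC replicates 2 and 3.

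*Stat6* (chr10:127642986-127660957, plus strand) encodes the STAT of the IL-4 receptor. It had 211, 227 and 224 CPM in control, 240, 250 and 239 CPM in AC treated and 181, 190 and 186 CPM in CpG treated B6 BMDMs. In SjSS it had 234, 229 and 223 CPM in control, 201, 205 and 195 CPM with AC and 181, 184 and 180 CPM with CpG. AC treated B6 samples were thus the highest of all and AC treated SjSS samples lay below both control groups. The AC response was 0.14 in B6 (SE 0.04, adjusted p = 0.0193) and -0.19 in SjSS (SE 0.04, adjusted p = 0.00126), and the interaction was -0.33 (SE 0.06, adjusted p = 0.00043). The increase in B6 did not pass without B6 control replicate 1 (0.11, adjusted p = 0.106) or B6 AC replicate 2 (0.12, adjusted p = 0.0886), while the decrease in SjSS and the interaction passed under each scaling and with each sample left out. Their sizes depended on the scaling, at -0.60 and -0.67 by library totals. CpG lowered *Stat6* in both strains, by 0.25 in B6 and by 0.33 in SjSS on the log2 scale (adjusted p = 9.5e-05 and 4.51e-06), and the difference of the responses was -0.08 (SE 0.06, adjusted p = 0.529).

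*Stat4* (chr1:51987148-52107189, plus strand), the STAT of the IL-12 receptor, was the lowest member in every group, with 518 to 936 counts over the 3 samples of a group. It had 5.36, 4.42 and 5.74 CPM in control, 7.21, 5.47 and 6.33 CPM in AC treated and 4.13, 3.83 and 3.89 CPM in CpG treated B6 BMDMs. In SjSS it had 4.24, 3.43 and 3.12 CPM in control, 6.72, 6.20 and 6.28 CPM with AC and 4.93, 4.0 and 4.68 CPM with CpG. All 3 AC treated SjSS samples were above their controls, whereas AC treated and control B6 samples overlapped. The AC response was 0.29 in B6 (SE 0.13, adjusted p = 0.0959, and 0.0417 with the replicate number as a block) and 0.83 in SjSS (SE 0.14, adjusted p = 3.75e-05). Control SjSS BMDMs were lower than control B6 by 0.52 on the log2 scale (SE 0.14, adjusted p = 0.0116), and the difference was -0.42 without SjSS control replicate 3 (adjusted p = 0.0713). The interactions with strain, 0.54 for AC (SE 0.19, adjusted p = 0.032) and 0.72 for CpG (SE 0.20, adjusted p = 0.0346), each include that lower control level. The AC interaction had adjusted p values of 0.0548 to 0.0944 without B6 control replicate 1 or 3, B6 AC replicate 2 or 3, SjSS control replicate 2 or 3 or SjSS AC replicate 1. The CpG interaction had ones of 0.0571 to 0.0999 without B6 control replicate 1 or 3, B6 CpG replicate 2 or 3, SjSS control replicate 2 or 3 or SjSS CpG replicate 1 or 3. The decrease with CpG in B6 (-0.39, SE 0.14, adjusted p = 0.02) had one of 0.0546 to 0.0921 without B6 control replicate 1 or 3 or B6 CpG replicate 2 or 3.

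*Stat4* is also a gene of lymphocytes, and the apoptotic cells were thymocytes. Of 21 T-lineage markers in the table other than *Cd4*, the summed level was 1.57 to 2.17 CPM in control B6, 3.10 to 4.28 CPM in AC treated B6, 1.48 to 2.36 CPM in control SjSS and 3.84 to 4.75 CPM in AC treated SjSS samples, with 3, 0, 1 and 1 of them at 0 counts in the group. With *Cd4*, which had most of the counts of the list, the sum was 9.30 to 11.7, 6.45 to 7.82, 11.3 to 13.2 and 16.9 to 21.0 CPM. *Cd3d*, *Cd3e*, *Cd3g* and *Trac* together had 18 to 31 counts in each of the 6 groups. Without *Cd4* the sum was thus higher with AC in both strains, and with it in SjSS but not in B6. Single markers differed in direction between the strains. *Rag1*, *Dntt* and *Themis* had 24, 18 and 10 counts in AC treated B6 and 3, 1 and 0 in AC treated SjSS BMDMs. *Lck*, *Lat* and *Cd247* had 39, 72 and 41 counts in AC treated B6 and 86, 127 and 81 in AC treated SjSS BMDMs. The part of these markers in the *Stat4* response was not tested. *Stat4* also shares 696 of its 3871 100-base windows with *Gm28177*, an overlapping gene on the same strand, whose level was 1.02 to 1.33 CPM in control B6, 1.67 to 2.16 CPM in AC treated B6, 1.72 to 1.90 CPM in control SjSS and 9.82 to 12.2 CPM in AC treated SjSS BMDMs. *Gm28177* rose with AC by 2.59 in SjSS (SE 0.18, adjusted p = 2.76e-10) and by 0.81 in B6 on the log2 scale (SE 0.19, adjusted p = 0.00259). How the estimated counts divided the shared reads between both genes was not tested, so the level of *Stat4* with AC in SjSS is uncertain.

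Per length of exon, the order of the members differed between groups, and it was also not the same in the 2 control groups. In control B6 BMDMs the level in CPM per kb was 50.1 ± 2.0 for *Stat6*, 43.4 ± 1.9 for *Jak1*, 14.3 ± 0.22 for *Stat3*, 13.2 ± 0.33 for *Jak2*, 10.5 ± 0.25 for *Tyk2*, 10.2 ± 0.076 for *Stat2*, 9.64 ± 0.18 for *Stat5b*, 2.19 ± 0.12 for *Stat5a* and 1.34 ± 0.17 for *Stat4* (SD, n = 3), and no neighbours in this order had overlapping samples. In control SjSS BMDMs *Stat6* and *Jak1* were followed by *Stat2* (16.3 ± 1.4), *Stat3* (14.3 ± 0.92) and *Jak2* (12.4 ± 1.7), and neighbours among these 3 overlapped. In AC treated SjSS BMDMs *Stat2* was first with 112 ± 7.0 CPM per kb and *Jak2* second with 70.3 ± 3.6. *Jak1* (50.4 ± 1.1) and *Stat6* (45.5 ± 1.1) came next, and no neighbours in that order overlapped. With AC in B6 *Jak2* (23.4 ± 2.9) and *Stat2* (20.6 ± 0.22) followed *Stat6* and *Jak1* and overlapped each other. *Stat6* and *Jak1* held the first 2 places in every group but AC treated SjSS BMDMs, and their samples overlapped each other in both CpG groups, where those of *Jak1* and *Stat2*, the next in order, overlapped too. By the length of the longest transcript *Jak1* came before *Stat6* in control B6 and in both CpG groups, *Stat2* before *Stat6* in CpG treated B6, and *Jak1* before *Jak2* in AC treated SjSS BMDMs. By the longest transcript *Stat3* also came before *Stat2*, and *Tyk2* before *Jak2* and *Stat5b*, in control SjSS BMDMs. *Stat2* then came before *Jak2* in control and AC treated B6 BMDMs, and *Tyk2* before *Jak2* in control B6. *Stat4* was ninth and *Stat5a* eighth in each group by either length.

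**Figure D4:**
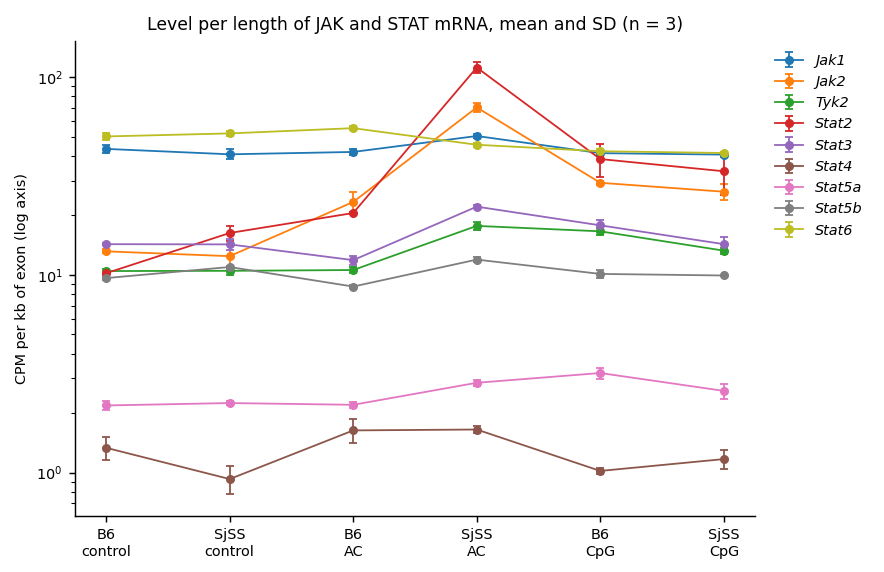
Mean level per kb of exon (log axis, CPM per kb, whiskers for the SD of 3 samples) of each member in the 6 groups, joined by lines only to follow a gene. *Stat2* (112) and *Jak2* (70.3) pass *Jak1* and *Stat6* in AC treated SjSS BMDMs, and *Stat4* stays lowest throughout.

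Ratios between members of the same sample do not depend on how libraries are scaled. The count of *Jak2* was 0.207 to 0.216 of that of *Jak1* in control B6, 0.347 to 0.412 with AC and 0.476 to 0.513 with CpG. In SjSS it was 0.191 to 0.228 in control, 0.940 to 0.995 with AC and 0.431 to 0.481 with CpG. The control groups of both strains overlapped, and the AC groups did not. The count of *Stat2* was 0.267 to 0.284 of that of *Stat6* in control B6 and 0.491 to 0.510 with AC, and 0.381 to 0.460 and 3.04 to 3.62 in SjSS. *Stat3* against *Stat6* went from 0.599 to 0.654 in control to 0.456 to 0.479 with AC in B6, and from 0.568 to 0.627 to 1.02 to 1.10 in SjSS. With TMM both genes of this ratio changed in each strain, in opposite directions to each other. *Tyk2* against *Jak1* was 0.216 to 0.240 in control and 0.236 to 0.242 with AC in B6, which overlap, and 0.231 to 0.271 and 0.326 to 0.343 in SjSS, which do not.

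The other genes of the pathway were described from 6 lists, with the background shares of each comparison as above. Of 24 cytokine receptor genes, 5 were higher and 10 lower with AC in B6, and 10 higher and 7 lower in SjSS. By library totals B6 had 4 receptor genes up and 15 down, and SjSS had 7 up and 13 down. *Ifnar1*, a chain of the type I interferon receptor, had 257 to 279 CPM in control and 210 to 213 CPM in AC treated B6 BMDMs (log2 -0.34, SE 0.07, adjusted p = 0.000459) and 204 to 243 and 212 to 236 CPM in SjSS (-0.03, adjusted p = 0.729). By library totals *Ifnar1* was lower with AC in SjSS too (-0.44, adjusted p = 4.57e-06), and its interaction was 0.31 with TMM (adjusted p = 0.0141) and -0.03 with library totals (adjusted p = 0.796). *Ifnar2*, the other chain, had 150 to 159 and 143 to 164 CPM in B6 and 164 to 170 and 184 to 199 CPM in SjSS, where its log2 fold change was 0.20 with TMM (SE 0.05, adjusted p = 0.00342) and -0.21 with library totals. *Il4ra*, the IL-4 receptor chain that docks STAT6, fell with AC in SjSS (log2 -0.32, SE 0.07, adjusted p = 0.000688) from 296 to 341 CPM down to 254 to 268 CPM, and was 338 to 365 and 332 to 376 CPM in B6 (0.01, adjusted p = 0.962). The interaction of *Il4ra* was -0.32 (SE 0.10, adjusted p = 0.0147), of the same sign as that of *Stat6*. *Csf2rb* and *Csf2rb2*, near-copies that encode signalling chains of the GM-CSF and IL-3 receptors, were lower with AC in SjSS (-0.22 and -0.23, adjusted p = 0.00682 and 0.0162). In B6 their AC responses were -0.13 and 0.20 (adjusted p = 0.143 and 0.0509). Their interactions were -0.10 and -0.43 (adjusted p = 0.459 and 0.00456). With library totals *Csf2rb* was lower in B6 too (-0.20, adjusted p = 0.0159), and its interaction passed (-0.44, adjusted p = 0.000384). By library totals the AC responses of *Csf2rb*, *Csf2rb2* and *Il4ra* in SjSS were all larger in size, at -0.64, -0.64 and -0.73, and the interaction of *Il4ra* was -0.66.

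Of 12 ligand genes tested, 9 were higher with AC in B6 and 12 in SjSS, and 7 had a larger response in SjSS, against 8, 11 and 5 by library totals. *Ifnb1* (interferon beta) had 5 counts over the 3 samples in control B6, 26 with AC and 8 with CpG, and 15, 694 and 14 counts in SjSS. Its level with AC was 4.85 to 5.66 CPM in SjSS and 0.10 to 0.30 CPM in B6. *Il6*, which signals through JAK1 and STAT3, had 55.5 to 76.8 CPM with AC in SjSS and 3.71 to 6.36 CPM in B6, with at most 0.176 CPM in any control sample. *Il10*, another ligand of that route, had 12.7 to 17.4 CPM with AC in SjSS, 6.73 to 7.61 CPM with AC in B6, and 60.6 to 73.6 CPM with CpG in B6. *Il12b*, the shared chain of IL-12 and IL-23, was highest with CpG in B6 (97.9 to 102 CPM), and *Ebi3*, a chain of IL-27, rose with both stimuli in both strains, except that by library totals its AC response in B6 did not pass (0.15, adjusted p = 0.0823). With CpG 7 ligands were lower in SjSS than in B6 BMDMs and none was higher.

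Of 19 inhibitor genes, 8 were higher and 3 lower with AC in B6, and 10 higher and 4 lower in SjSS, where library totals gave 7 higher and 8 lower. *Socs1*, which blocks the kinases directly, had 1.41 to 2.37 CPM in control and 295 to 333 CPM in AC treated SjSS BMDMs, and 2.79 to 3.50 and 10.03 to 13.8 CPM in B6. Its log2 responses were 7.31 (SE 0.18, adjusted p = 2.62e-16) and 1.95 (SE 0.17, adjusted p = 2.92e-08). *Socs3*, which binds the IL-6 receptor chain and JAK kinases, had a different pattern, with 167 to 192 CPM with AC and 284 to 358 CPM with CpG in SjSS, and 29.5 to 41.6 and 573 to 686 CPM in B6. *Usp18*, which turns off the type I interferon receptor at IFNAR2, had 4.68 to 5.97 CPM in control B6, 38.4 to 44.1 with AC and 70.4 to 120 CPM with CpG, and 14.8 to 17.4, 526 to 586 and 40.5 to 85.2 CPM in SjSS. *Cish*, a target of STAT5, was higher with AC in SjSS (log2 1.92, SE 0.20, adjusted p = 9.52e-08) at 6.62 to 9.82 CPM, and had 2.30 to 3.81 CPM with AC in B6 (-0.28, adjusted p = 0.294). The tyrosine phosphatase genes *Ptprc* (CD45), *Ptpn1* and *Ptpn6* were higher with CpG in both strains. With AC *Ptprc* rose by 0.37 in B6 and 1.26 in SjSS on the log2 scale (adjusted p = 0.000547 and 3.71e-11).

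The 14 genes of interferon targets and *Irf9*, the partner of STAT2, were all higher with AC and with CpG in both strains, with median log2 fold changes of 3.31 (AC) and 3.55 (CpG) in B6 and of 6.35 (AC) and 1.94 (CpG) in SjSS. All 14 were also higher in control SjSS than in control B6 BMDMs, with a median of 1.00, as *Stat2* was. For AC the response was larger in SjSS for 13 of the 14, and for CpG it was smaller for 12. *Irf9* had 41.0 to 42.4 CPM in control, 71.3 to 79.4 with AC and 72.3 to 78.8 CPM with CpG in B6, and 51.6 to 58.2, 135 to 148 and 58.9 to 77.8 CPM in SjSS. The AC interaction of *Irf9* was 0.53 with TMM (adjusted p = 0.000878) and 0.19 with library totals (adjusted p = 0.163). *Rsad2*, an antiviral enzyme, reached 13142 to 13814 CPM with AC in SjSS from 35.9 to 75.3 CPM in control, and 532 to 636 CPM in B6. *Ifit2* and *Cmpk2*, both antiviral, reached 7532 to 8235 and 6870 to 7167 CPM there. By library totals the 14 genes passed in the same directions in the responses and in control BMDMs, and 9 rather than 13 had a larger AC response in SjSS.

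Of 10 targets of STAT3 and STAT5, 4 were higher and 2 lower with AC in B6, and 8 higher and 2 lower in SjSS, where library totals gave 6 and 4. *Etv3*, a repressor induced by IL-10, had 113 to 135 CPM with AC in B6 (log2 0.09, adjusted p = 0.376). In SjSS it had 489 to 521 CPM with AC (1.56, SE 0.07, adjusted p = 7.87e-13). Its control level was already higher in SjSS, at 153 to 188 CPM against 111 to 119 CPM in B6 (log2 0.57, adjusted p = 1.87e-05). *Ccnd1* (cyclin D1) fell in B6 by 0.67 (adjusted p = 2.1e-07) and changed by 0.23 in SjSS with TMM (adjusted p = 0.00613) but by -0.18 with library totals. *Sbno2*, another IL-10 response gene, was higher with CpG in both strains (0.57 and 0.43, adjusted p = 1.63e-07 and 7.56e-06). Of 10 targets of STAT6 tested, 1 was higher and 6 lower with AC in B6, and 3 higher and 3 lower in SjSS, where library totals gave 2 and 4. *Mrc1*, the mannose receptor, had 513 to 601 CPM in control and 188 to 216 CPM with AC in B6 (log2 -1.42, SE 0.09, adjusted p = 3.87e-10), and 437 to 489 and 418 to 477 CPM in SjSS (-0.06 with TMM, adjusted p = 0.596, and -0.47 with library totals). *Arg1* (arginase 1) went the other way, with 32.6 to 70.3 CPM with AC in B6 (-0.20, adjusted p = 0.53) and a decrease in SjSS (-1.15, SE 0.23, adjusted p = 0.000336) to 12.4 to 17.9 CPM. *Klf4*, a transcription factor, rose with AC in SjSS (1.27, SE 0.25, adjusted p = 0.000213) and fell with CpG in both strains. The STAT6 targets thus moved in both directions while *Stat6* fell in SjSS. With TMM their split there was near that of all genes (28.6% higher and 29.4% lower). Many genes of these lists answer to more than one factor.

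**Figure D5:**
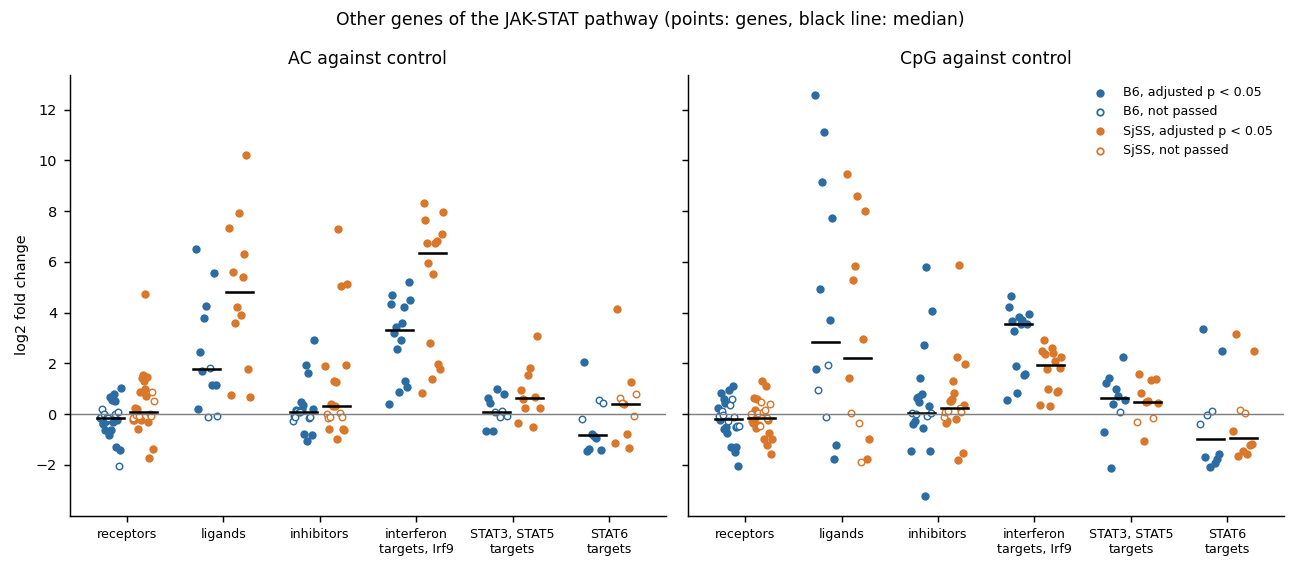
Log2 fold changes of each tested gene of the 6 lists (points; filled where the adjusted p was under 0.05) after AC (left) and CpG (right) in B6 (blue) and SjSS (orange) BMDMs, with the median as a black line. Interferon targets have medians of 3.31 and 6.35 after AC and of 3.55 and 1.94 after CpG in B6 and SjSS; with library totals the medians of receptors and inhibitors after AC in SjSS change from 0.11 and 0.32 to -0.31 and -0.09.

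For each member the 3 genes with the most similar profile over the 18 samples were found by Pearson correlation of log2 CPM, as a description. The samples fall into 6 groups of 3, and one library scaling applies to all genes of a sample. *Stat2* was followed by *Parp9* (r = 0.997), *Slfn8* (0.995) and *Rnf213* (0.994), and *Jak2* by *Gbp5* (0.991), *Stxbp3* (0.990) and *Stxbp3-ps* (0.989), a pseudogene of the latter that can share its reads. *Stat4* was followed by *Il12rb2* (0.906), which encodes a chain of the receptor that STAT4 serves, and by *Noct* (0.883) and *Rbms1* (0.874). *Stat3* had *Ppp6r1* (0.945) and *Stat6* had *Sfxn3* (0.945) as the first. *Jak1* had *Zcchc6* (0.965), *Tyk2* had *Tmbim6* (0.973), *Stat5a* had *Tmem2* (0.959) and *Stat5b* had *Sdf2* (0.918). Of the 27 pairs, 4 were also among the first 3 by Spearman correlation.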

How the data were processed

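RNA of 18 BMDM samples was analysed. The authors mapped reads to mm10 with STAR and assigned them to genes in Partek by expectation maximization. Their deposited file holds estimated counts per gene without normalization. Strandedness is not given in the sources used here. Of these values 41.1% were not whole (tolerance 1e-06), and they were rounded before testing. The 9 members, the gene lists and the tests were chosen with earlier results of these data known, and other genes of the family are not reported here. Samples were grouped from their labels, and where separate mice are not stated by the labels, p values measure only the spread between these samples. The study used 3 mice of each strain, so samples of different treatments may share a mouse, but the sources do not tie replicate numbers to mice or give the strain of the thymocytes for the RNA samples. The study's methods give 4 h, not 3 h, after the AC wash.

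In R 4.3.3, edgeR 4.0.16 (filterByExpr, TMM, quasi-likelihood test, 1 mean for each of 6 groups over all 18 samples) gave 9 comparisons, adjusted by the Benjamini-Hochberg method over 15789 genes. SE is the size of the log2 fold change divided by the square root of F. Alternatives were DESeq2 1.42.0, other scalings and filters, fits of the compared groups, a replicate block, and each sample left out. Levels per kb used the union of exons in GENCODE M21. Promoters came from RefSeq (GRCm38.p6), with an entry for all 9 members. Named beside the members were the 3 genes with the highest mean CPM of each list, 12 genes fixed by name and the 3 nearest profiles of each member. Profiles were correlated on log2 CPM (prior count 2). Scripts were tested on simulated data. The lists also held *Ifng*, *Il13*, *Il21*, *Retnla* and *Chil4*, which were not analysed here. Precision is set by 3 samples a group.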

Additional observations from a re-analysis of the deposited data

Results flagged for a closer look

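The responses to AC differed between the strains, by the interaction term of edgeR's quasi-likelihood test, in all 9 members. The difference, SjSS minus B6 on the log2 scale, was 1.77 for *Stat2* (adjusted p = 6.33e-07), 1.67 for *Jak2* (adjusted p = 9.24e-09), 0.90 for *Stat3* (adjusted p = 2.55e-07), 0.74 for *Tyk2* (adjusted p = 2.85e-07) and -0.33 for *Stat6* (adjusted p = 0.00043), and these 5 passed under each scaling. It was 0.54 for *Stat4* (adjusted p = 0.032), 0.36 for *Jak1* (adjusted p = 0.000744), 0.33 for *Stat5a* (adjusted p = 0.0166) and 0.27 for *Stat5b* (adjusted p = 0.00301), and these 4 did not pass by library totals. The responses to CpG differed in 3 members, by -0.88 for *Stat2* (adjusted p = 0.00963), 0.72 for *Stat4* (adjusted p = 0.0346) and -0.33 for *Tyk2* (adjusted p = 0.0131). With a replicate block *Stat3* (-0.31, adjusted p = 0.0407) and *Stat5a* (-0.34, adjusted p = 0.0431) passed as well. For *Stat2* the difference was thus positive with AC and negative with CpG.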

How the results depend on the processing

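Library scaling had the largest effect. By library totals 57 of 81 results on single members kept direction and side of the threshold, and 15 changed sign. Of those that kept their sign, 6 no longer passed and 3 newly passed. Among the 15, *Stat5a* (AC in SjSS), *Jak1* (strains, AC), and *Stat5a* and *Stat5b* (AC interaction) also no longer passed. *Stat5b* (CpG in B6) changed sign and newly passed. The members higher and lower were then 5 and 3 for AC in SjSS, 4 lower for CpG in B6, 4 higher for the AC interaction, and 1 was called for the strain difference under AC. The values of other sign were -0.06 for *Stat5a* and -0.05 for *Tyk2* (AC in B6), -0.07 for *Stat5a*, -0.29 for *Stat5b* and -0.11 for *Jak1* (AC in SjSS), -0.11 for *Stat5b* (CpG in B6), -0.12 for *Stat3* (CpG in SjSS), 0.037 for *Stat3* (strains, control), -0.29 for *Stat4* and -0.032 for *Jak1* (strains, AC), 0.07 for *Stat5b*, 0.06 for *Stat6* and 0.07 for *Jak1* (strains, CpG), and -0.014 for *Stat5a* and -0.08 for *Stat5b* (AC interaction). The cause was not tested. With no filter 78 were unaltered, and *Stat3* (CpG in SjSS) was -0.0023 and *Tyk2* (strains, control) -0.0069. With only the compared groups, and so fewer samples, 74 were unaltered, the members lower were 1 for CpG in SjSS and 0 for the strains in control, those with a higher CpG interaction 0, and *Stat3* was 0.009 (strains, control). Members with a lower CpG interaction numbered 5 with DESeq2's size factors and 5 with its test, each with 78 results unaltered.

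The sources do not say that a replicate number marks a mouse. Within strains 13 of 18 pairs of same-numbered samples had a correlation of deviations over 0.1, with a range of -0.137 to 0.534. In 29 of 36 comparisons a sample correlated best with its own number. What same-numbered samples have in common was not tested. All 3 pairs were over 0.1 for control and CpG in B6 and for AC and CpG in SjSS. This did not hold for control and AC in either strain, control and CpG in SjSS or AC and CpG in B6. The block was therefore kept as an alternative. With the number as a replicate block 4 members had a lower CpG interaction, and 50 of 54 results kept direction and side of the threshold, the other 4 being *Stat4* for AC in B6 (0.29) and CpG in SjSS (0.34) and *Stat3* and *Stat5a* for the CpG interaction, which newly passed.

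With each sample left out, 1395 of 1458 member results were unaltered, 32 no longer passed, 13 newly passed and 18 changed sign. Members lower ranged from 1 to 2 for AC and for CpG in B6 and from 0 to 1 for the strains in control, and the CpG interaction had 0 to 1 higher and 2 to 4 lower. Values near 0 that changed sign ranged from -0.029 to 0.05 for *Stat5a* and from -0.0079 to 0.04 for *Tyk2* (AC in B6), from -0.07 to 0.05 for *Stat3* and from -0.05 to 0.035 for *Jak1* (CpG in SjSS), from -0.046 to 0.046 for *Stat3*, from -0.14 to 0.028 for *Jak2* and from -0.025 to 0.042 for *Tyk2* (strains, control), and from -0.08 to 0.12 for *Stat4* (strains, AC). With 3 samples a group, the low counts of *Stat4* limit its precision most.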
